A study of Mus musculus with 3 samples.

Results

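Non-haematopoietic cells of the mouse suprarenal aorta were examined in 3 single-cell libraries, 1 for each group, made from the pooled aortas of 14 mice. The control library pooled 5 C57BL/6 mice on chow. The room air library pooled 5 Apoe-/- mice kept for 16 weeks on a Western diet. The aneurysm library pooled 4 Apoe-/- mice on that diet that also breathed cigarette smoke for 16 weeks and had a measurable dilatation of the aorta. Every pool was stained and sorted for CD45+ CD31- cells and for CD45- CD31+ cells, so the sort set how many wall cells each library holds. Loss of Apoe, the gene for apolipoprotein E, raises plasma cholesterol in mice.

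The members were chosen by their measured values. A barcode was kept if it had at least 200 genes and at most 10% of its unique molecular identifiers (UMIs, tags that count captured RNA molecules) from mitochondrial genes. Of these 5465 barcodes, 85 had 0 UMIs of Ptprc, the gene for CD45, and at least 0.5% of their UMIs from Sparc, Mgp, Clu and Cytl1 together. They were 39 of 778 control barcodes, 29 of 1848 from room air and 17 of 2839 from aneurysm. As shares these were 5.01% (exact Clopper-Pearson 95% interval 3.59 to 6.79), 1.57% (1.05 to 2.25) and 0.599% (0.349 to 0.957). The intervals on shares, levels and ratios cover counting error only. With 1 library per group there is no replicate, and no test between groups was made.

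Most cells of an arterial wall outside the blood lineages are endothelial cells, which line the lumen and control clotting, tone and leukocyte entry, smooth muscle cells, which contract and make elastin, and fibroblasts of the adventitia, which make collagen. Endothelium of large arteries is known to differ from that of capillaries, because it sits on an elastic wall and feels fast pulsatile flow. Cytl1 encodes a small secreted protein, Clu the secreted chaperone clusterin, Mgp an inhibitor of calcification and Sparc a collagen-binding protein.

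Each member was put in the group whose marker sum was largest. The Cytl1/Clu group (Cytl1 and Clu) held 71 cells, of which control gave 34, room air 25 and aneurysm 12. The endothelial group (Cdh5, Emcn and Aqp1) held 5 cells, 4 in control and 1 in aneurysm. The fibroblast group (Dcn and Col1a2) held 9 cells, 1 from control and 4 each from room air and aneurysm. In 3 of the 71 Cytl1/Clu cells, 1 per library, and in all 5 endothelial cells the leading sum was under 2 times the next, so these lie near the line between groups. No fibroblast cell did. Median depth of the members was 2739 UMIs for control, 4396 for room air and 4329 for aneurysm, so control cells were the shallowest.

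**Figure D1:**
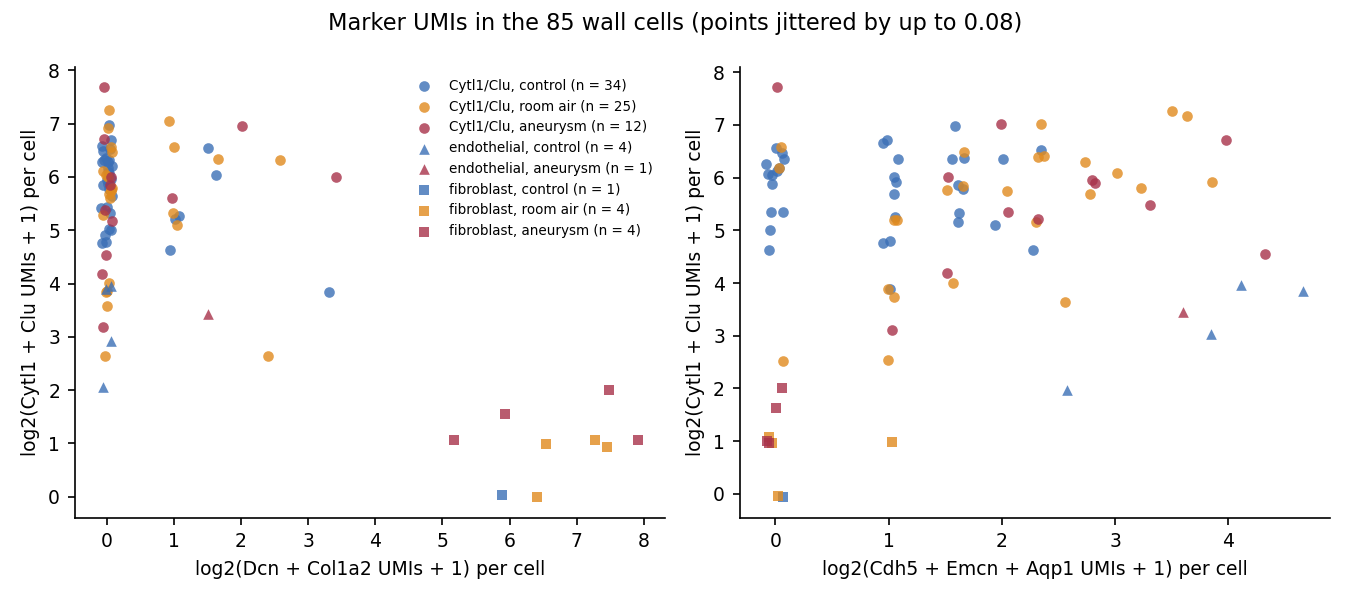
Each point is 1 of the 85 wall cells, plotted by its Cytl1 plus Clu UMIs against its Dcn plus Col1a2 UMIs (left) and its Cdh5, Emcn and Aqp1 UMIs (right), on log2 axes after adding 1. The 9 fibroblast cells stand apart on the left panel, and the 5 endothelial cells lie beside the Cytl1/Clu cells on the right panel. The same sums set the groups, so the side on which each group lies follows from the assignment.

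The lowest rule shares inside the threshold were 0.517%, 0.518% and 0.700% of UMIs, in a control endothelial cell, an aneurysm fibroblast cell and a control endothelial cell. The highest outside it among Ptprc-negative barcodes were 0.499%, 0.476% and 0.404%, in an aneurysm fibroblast-type, a room air endothelial-type and an aneurysm endothelial-type barcode. The threshold therefore passes through the endothelial and fibroblast cells. A further 18 Ptprc-negative barcodes with Pecam1 and at least 5 UMIs of the endothelial sum lay below it (4, 8 and 6), with a median rule share of 0.218%. Another 12 barcodes met the share but had 1 to 3 Ptprc UMIs (3, 6 and 3).

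The label was checked against markers of the cell types that an aortic sort could hold. The 71 Cytl1/Clu cells carried general endothelial genes. Of 23 such genes, control cells showed 21, room air cells 22 and aneurysm cells 23, and they made up 1.53%, 1.27% and 1.28% of UMIs, against 0.015% to 0.018% in leukocytes of the same libraries. Pecam1, which encodes the sorted antigen CD31, had a UMI in 32 of 34, 24 of 25 and 12 of 12 cells, and Cdh5, which encodes VE-cadherin, in 19, 19 and 11. Genes of large arteries (22 genes, among them Eln, Fbln5, Gja4, Sox17 and Bmp4) took 4.34%, 3.39% and 3.79%. Most of this came from Cytl1, Clu and Mgp, which the rule used. The other 19 genes took 1.06%, 1.33% and 1.31%. The 17 genes of capillaries and veins took 0.0556%, 0.122% and 0.105%, beside 0.081% to 0.0885% in leukocytes. Rgcc, Gpihbp1, Rbp7, Ackr1 and Aplnr of that list were at 0 in all 3 libraries, while Plvap had a UMI in 39 of the 71 cells and Selp in 30. Of the lymphatic list, Prox1, Pdpn, Mmrn1 and Reln were at 0 throughout.

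Many defining markers of other cell types were at or near 0 in the Cytl1/Clu cells, and some genes of their lists were present. Of 11 smooth muscle genes, 4, 7 and 6 had a UMI in control, room air and aneurysm. The list took 0.065%, 0.330% and 0.190% of UMIs, beside 0.00097% to 0.0042% in leukocytes, and up to 2.32% in a room air cell. The smooth muscle genes Myh11, Cnn1, Des and Lmod1 were at 0 UMIs in every library, which at a limit of 3 UMIs per library allows a level of up to 30.9 for control, 24.2 for room air and 45.6 for aneurysm in CPM (a gene's UMIs over all UMIs of the summed cells, on the customary scale). Of 20 fibroblast genes, 12, 14 and 11 had a UMI, and the list took 0.438%, 0.418% and 0.569% of UMIs, beside 0.022% to 0.0727% in leukocytes and 4.53% to 6.88% in the fibroblast cells. Col1a1, Pdgfra and Dpt were at 0 in all 3 libraries and Dcn had 14, 14 and 13 UMIs, but Pi16 was seen in 17 of 34, 18 of 25 and 11 of 12 cells and Ly6a in 24, 22 and 12. Adipocyte and erythroid genes had 0 UMIs, and of the platelet genes Pf4 alone was seen. Endothelial genes were present in 70 of the 71 cells. The exception, which goes against the label, was a room air cell of 2125 UMIs near the line, with 5 UMIs of Cytl1 and Clu, 0 UMIs of the 23 endothelial genes, 196 of Cd74 and 4.66% of its UMIs from macrophage genes. An aneurysm cell of 4324 UMIs carried endothelial genes (85 UMIs) beside 41 UMIs of the neutrophil gene S100a8.

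The genes that chose the cells varied among them. Cytl1 ran from 4 to 109 UMIs per cell in control (median 49), room air cells from 0 to 109 (27) and aneurysm cells from 1 to 162 (17.5). As a share of a cell's UMIs the medians were 1.59%, 0.483% and 0.277%. The summed level of control was 16147 CPM, that of room air 6852 and that of aneurysm 5995, and a single aneurysm cell held 41.1% of the aneurysm UMIs. The ranges of the libraries overlapped, with most control cells above the room air median. Clu had median shares of 0.509%, 0.446% and 0.594%, and Mgp of 1.08%, 0.747% and 1.22%. Sparc had 0.148%, 0.171% and 0.271%. T cells, which should lack these genes, had Cytl1 at 49.8, 32.7 and 3.08 CPM at median depths of 2269.5, 3149 and 3533 UMIs. The T cells were chosen with a rule share under 0.5%, so their distance from the wall cells follows in part from the selection.

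**Figure D2:**
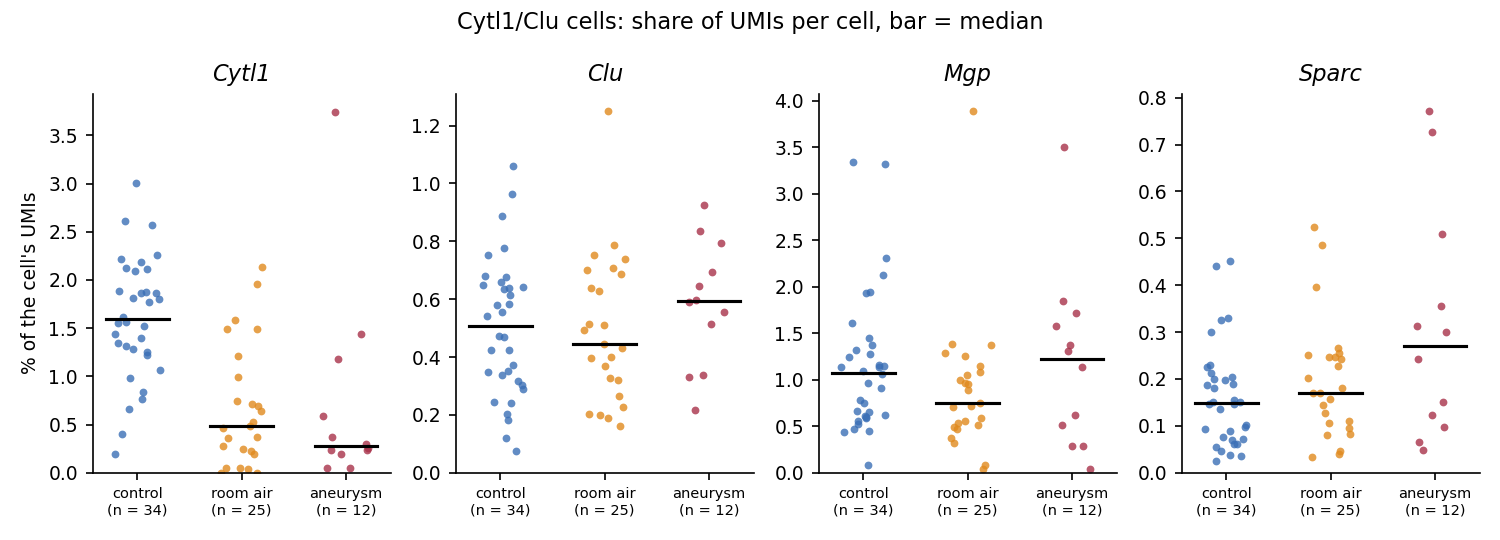
Share of each Cytl1/Clu cell's UMIs from Cytl1, Clu, Mgp and Sparc, 1 point per cell and 1 bar per library median. Cytl1 medians step from 1.59% in control to 0.483% in room air and 0.277% in aneurysm, while the Clu medians lie between 0.446% and 0.594%.

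By the ratio to leukocytes, the 15 leading genes of the Cytl1/Clu cells with at least 100 CPM were Pde3a, Sox18, Afap1l2, Klk10, Efna5, Bmp4, Sfrp1, Enpp6, Frzb, Col8a1, Ptprr, Pcolce2, Sulf1, Mall and Col18a1. As a description, they include Sox18, a transcription factor of endothelium, Bmp4, a bone morphogenetic protein, and the Wnt antagonists Sfrp1 and Frzb. Bmp4 had 89 UMIs in 23 of 34 control cells, 84 in 19 of 25 room air cells and 67 in 8 of 12 aneurysm cells. Sfrp1 had 80, 180 and 47. Eln, which encodes elastin, had 243 UMIs in 31 of 34 cells, 472 in 20 of 25 and 171 in 12 of 12, or 2501, 3800.2 and 2602 CPM, against 2.67, 10.9 and 1.36 CPM in leukocytes. Vwf, which encodes von Willebrand factor, had 59, 114 and 57 UMIs. Vcam1, an adhesion molecule for leukocytes, had 115, 107 and 44.

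Signals that endothelium sends to the wall and the blood were also seen in every library. Edn1, the gene of the vasoconstrictor endothelin, had 39 UMIs in 18 of 34 control cells, 84 in 16 of 25 room air cells and 72 in 8 of 12 aneurysm cells. Nos3, the endothelial nitric oxide synthase, had 21, 21 and 11 UMIs, and Thbd, the anticoagulant receptor thrombomodulin, 36, 21 and 7. Sox17, a transcription factor of arteries, had 31, 43 and 29 UMIs, in 18 of 34, 19 of 25 and 11 of 12 cells. Thbs1, a matricellular inhibitor of vessel growth, had 18, 80 and 84 UMIs, in 6, 11 and 5 cells. Kdr, a receptor of VEGF, had 0, 0 and 1 UMI, and Robo4 had 0, 4 and 1.

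Clustering of the 85 members without the groups gave 6 clusters, 1 of which was the 9 fibroblast cells. Of the clusters with Cytl1/Clu cells, 1 held 24 cells, 22 of them from control, led by Serpina1d, Serpina1e, Apoe, Klk8, Lsr and Klk10 among others. Another held 16 cells, all from room air, with Dqx1, Tagln, Acta2 and Jchain among its leading genes. A cluster that is mostly 1 library may be that library and not a cell type, and Apoe differs between the libraries by genotype.

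Room air against control asks what 16 weeks of Western diet in Apoe-/- mice went with in these cells, set against wild-type mice on chow. Strain genotype and diet cannot be told apart. The viability in the labels also differed, at 73% for control and 91% for room air, and its part was not tested. Summed over Cytl1/Clu cells (97172 UMIs in control and 124204 in room air), 1820 genes had at least 20 UMIs in the 2 sums together. Of these, 159 (8.74%) were at least 2-fold higher and 102 (5.6%) at least 2-fold lower in room air, and the median gene moved by -0.04 on the log2 scale. The genes named next also lay at least 3 times above the leukocytes of the library where they were higher, as 46 of the 159 and 57 of the 102 did, and were ranked by the near end of their interval.

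Among the genes higher in room air were the collagens Col8a1, Col5a2 and Col3a1. Col8a1, a short-chain collagen of vessel walls, had 18 UMIs in 8 of 34 control cells and 112 in 16 of 25 room air cells, a 4.87-fold higher level (exact conditional 95% interval 2.94 to 8.51). Col5a2, a fibrillar collagen, had 9 and 49 UMIs (4.26-fold, 2.07 to 9.86). Col3a1 had 2 and 28 UMIs (a ratio of 10.95, 2.76 to 94.9), at 225 CPM in these cells beside 47.0 in room air leukocytes. Of 22 collagen and collagen-processing genes, 8 were measured well enough. Among them Col3a1, Col5a2, Col8a1 and P4hb were at least 2-fold higher and Pcolce2 lower, with a median log2 ratio of 1.14.

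Lrg1, a secreted glycoprotein that acts on TGF-beta signalling in vessels, had 0 UMIs in all 34 control cells and 65 UMIs in 14 of 25 room air cells. With 3 UMIs in place of the 0, Lrg1 was 17.0-fold higher, and its exact interval began at 13.4. Sox4, a transcription factor, had 0 and 28 UMIs (7.3-fold higher by the same limit, interval from 5.56), with 53.6% of the 28 in 1 cell. Emcn, which encodes the sialoglycoprotein endomucin, had 4 UMIs in 3 of 34 cells and 32 in 10 of 25 (6.26-fold, 2.22 to 24.4). After thinning every cell to 1500 UMIs, 2 of 32 control and 7 of 25 room air cells had an Emcn UMI. Fabp4, a fatty acid carrier of capillary endothelium, had 2 UMIs and 27 (a ratio of 10.6, 2.65 to 91.7). When the 5 cells of the endothelial group were counted with the Cytl1/Clu cells, as clustering joined them, the log2 ratio of Lrg1 moved from 4.08 to 0.35, that of Emcn from 2.65 to 0.47 and that of Fabp4 from 3.40 to -1.66. Of those 5 cells, 4 are control cells. These 3 differences therefore rest on where the line between the groups is drawn.

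Other genes higher in room air differed in how many cells carried them. Dqx1 came from 1 room air cell with 23 UMIs. Armcx4 had 1 and 19 UMIs, spread over 9 room air cells (a ratio of 14.9, 2.36 to 618). Fbln5, which helps elastic fibres assemble, had 89 UMIs in 24 of 34 cells and 290 in 23 of 25 (2.55-fold, 2.00 to 3.27), a difference spread over nearly all the cells. Gja4, a connexin of arteries, had 40 and 114 (2.23-fold, 1.54 to 3.28).

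Among the genes lower in room air were those of the proteases Klk10 and Klk8 and of the prostacyclin synthase. Cytl1, which the rule used, was 2.36-fold lower (2.17 to 2.56). Klk10, a secreted serine protease, had 109 UMIs in 23 of 34 control cells and 16 in 5 of 25 room air cells, 8.71-fold lower (5.13 to 15.8). Klk8, of the same kallikrein family, had 27 and 4 UMIs (8.63-fold, 3.01 to 33.9), with a room air level of 32.2 CPM beside 27.7 in leukocytes. Ptgis, the prostacyclin synthase, had 58 UMIs in 22 of 34 cells and 13 in 10 of 25 (5.70-fold lower, 3.09 to 11.3). Control cells thus carried most of the Klk10 and Ptgis UMIs, and some room air cells carried them too.

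The remaining named genes of that direction were 2.05-fold to 6.07-fold lower. Icam2, a surface molecule of endothelium, had 130 UMIs in 32 of 34 cells and 61 in 21 of 25 (2.72-fold lower, 1.99 to 3.76). Tm4sf1, a tetraspan membrane protein, had 667 and 415 UMIs, in every cell of both libraries, and was 2.05-fold lower (1.81 to 2.33). Gas6, a ligand of TAM receptors, was 3.44-fold lower (2.17 to 5.63), H2-Q7, a class I histocompatibility gene, 4.15-fold (2.13 to 8.71) and Slc9a3r2, a scaffold protein, 3.38-fold (2.21 to 5.29). Lsr, a lipoprotein receptor of cell contacts, was 6.07-fold lower (2.02 to 24.5), Mall 2.88-fold (1.75 to 4.86) and Adam15, a metalloprotease, 3.05-fold (1.72 to 5.62).

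**Figure D3:**
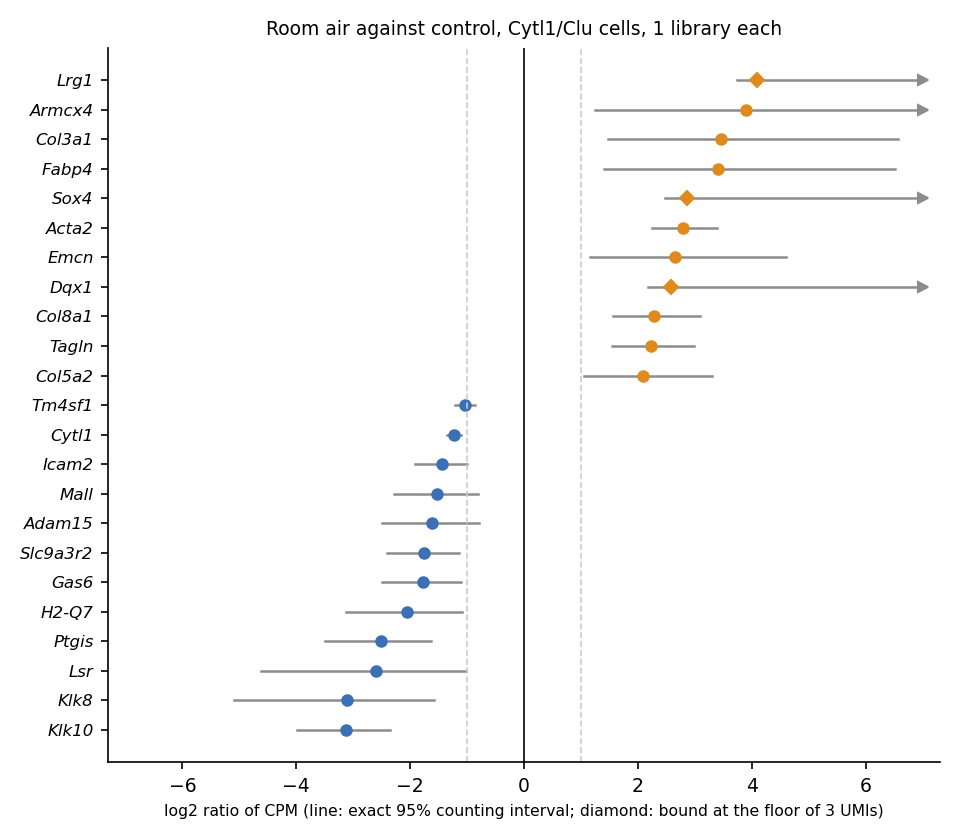
Ratio of room air to control CPM, on a log2 axis, for the genes named above in Cytl1/Clu cells that were ranked by interval. Lines are exact 95% counting intervals, arrows run past the axis, and diamonds are bounds for genes with 0 UMIs in control.

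Gene groups gave a mixed picture. Among all tested genes 8.74% were at least 2-fold higher and 5.6% lower, so a single gene of a list of 11 to 19 lies near the background. Of 19 general endothelial genes measured, Emcn was higher and Icam2 lower past 2-fold, and 11 of 19 were below a ratio of 1 (median log2 -0.29). Emcn is one of the genes that drew the line to the endothelial group, and its log2 ratio was 0.47 with that group included. Of 18 arterial genes, Gja4, Jag1 and Fbln5 were higher and Cytl1 lower (median -0.06). Of 12 genes tied to laminar flow and the factor KLF, Gja4 was higher and Thbd lower (-0.18). Klf2, a flow-induced transcription factor, had 310, 286 and 81 UMIs over the 3 libraries. Among genes of vascular tone and haemostasis, Ece1 was at least 2-fold higher and Ptgis and Thbd lower. Of 11 class I histocompatibility and peptide-loading genes, 0 were higher and H2-Q7, Tap2 and Psmb9 lower (median -0.31). No gene of the 16 measured for early response and dissociation stress passed 2-fold (0.11), and of 12 redox genes Gstm1 and Nfe2l2 were lower (-0.19). The 20 sterol synthesis genes were too low to be compared.

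Acta2 and Tagln, which encode smooth muscle actin and the actin-binding protein transgelin, had 30 and 20 UMIs over the control cells, 265 and 120 over those of room air, and 100 and 20 over those of aneurysm. In room air Acta2 was 6.91-fold higher than in control (4.73 to 10.4) and Tagln 4.69-fold (2.91 to 7.96). These UMIs sat in few cells. A pair of room air cells of 8302 and 8476 UMIs had 112 and 143 of Acta2 and 72 and 39 of Tagln, and held 255 of the 265 Acta2 UMIs. Outside the cells with at least 5 Acta2 UMIs, Acta2 had 7, 10 and 0 UMIs in control, room air and aneurysm. The 2-fold difference of Acta2 ended without the 2 control and 2 room air cells of that kind, with 76.6 CPM (30.8 to 158) in control and 93.1 (44.6 to 171) in room air. Tagln outside those cells had 0 UMIs in control, 9 in 5 room air cells (83.8 CPM, 38.3 to 159) and 0 in aneurysm, under the 20 UMIs asked of a comparison.

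Cells with at least 5 Acta2 UMIs were 2 of 34 in control (5.88%, exact interval 0.72 to 19.7), 2 of 25 in room air and 5 of 12 in aneurysm (41.7%, 15.2 to 72.3). The aneurysm cells held 46, 24, 15, 8 and 7 Acta2 UMIs. All 9 also had Pecam1 (2 to 23 UMIs) and Cdh5 (2 to 10 UMIs), and none had Myh11, Cnn1 or Des. Myl9, also of the smooth muscle list, had 7 and 4 UMIs in the 2 room air cells. It had 1 UMI in the aneurysm cell with 46 Acta2 UMIs and 0 in the others. With cells thinned to 1500 UMIs, 5 of 32, 4 of 25 and 5 of 12 cells had any Acta2 UMI. In T cells Acta2 was at 5.53, 12.5 and 1.32 CPM. The 5 aneurysm cells were deep, at 4329 to 12110 UMIs beside a median of 4983.5, and whether any barcode holds more than 1 cell was not tested beyond Scrublet, which marked none of the 85 members.

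Acta2 lies on mouse chromosome 19 (chr19:34241090-34255590, minus strand, GRCm38, GENCODE M21, protein-coding). Its proximal promoter is shown because Acta2 and Tagln are known targets of serum response factor through CArG boxes, a CC, a run of A or T bases and a GG. The window is the 250 bases before the RefSeq start (chr19:34255374-34255623, minus strand, GRCm38.p6, 5′ to 3′), with each match to a CArG box with at most 1 mismatch in capitals.
Acta2 promoter: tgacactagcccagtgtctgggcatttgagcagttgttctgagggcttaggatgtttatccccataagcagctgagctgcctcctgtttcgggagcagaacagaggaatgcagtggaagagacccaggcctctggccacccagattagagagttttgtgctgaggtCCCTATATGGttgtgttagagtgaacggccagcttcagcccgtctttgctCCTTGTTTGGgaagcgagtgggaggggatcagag
The motif reads the same on both strands. The matches begin 84 and 34 bases before the RefSeq start and do not overlap, and none is exact. The RefSeq start lies inside the GENCODE span of the gene given above, and so do both matches. Of 32851 RefSeq promoter windows of this length, 18.6% hold at least 1 such match and 2.96% hold 2 or more. A match is a description of the letters and was not tied to binding.

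**Figure D4:**
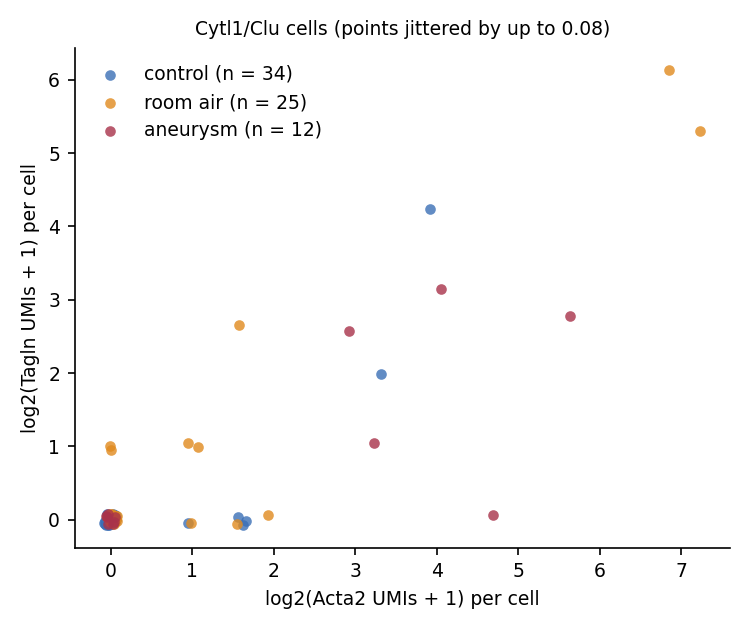
Tagln against Acta2 UMIs in each Cytl1/Clu cell, on log2 axes after adding 1. The 2 room air cells at the upper right hold 112 and 143 Acta2 UMIs, and most cells of every library sit at 0 for both genes.

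Genes of leukocytes also differed between the libraries in the Cytl1/Clu cells. Of control UMIs, macrophage genes took 0.189%. The room air share was 0.572%, or 0.501% without the cell that lacked endothelial genes, and the aneurysm share 0.160%. In leukocytes the same list took 3.18%, 2.63% and 2.29%, and in T cells, which should lack it, 1.14%, 2.15% and 1.58%. Of 6 class II histocompatibility genes measured, 5 were at least 2-fold higher in room air than in control, beside 8.74% of all tested genes. Cd74, among the 5, was at 3985 CPM against 1276. Without the room air cell that lacked endothelial genes Cd74 was at 2449 CPM, under 2-fold. Without that cell H2-Aa was at 1433.5 CPM against 391 in control, H2-Ab1 at 1974 against 648 and H2-Eb1 at 926 against 319. These H2 genes thus stayed at least 2-fold higher in room air. The level of H2-DMb1 without that cell is not given here. T cells held Cd74 at 13507 CPM in control and more in the others, so the wall cells lay below the T cells. Spp1, which encodes osteopontin, had 0, 96 and 12 UMIs (773 CPM in room air), beside 4919 CPM in room air T cells. The part of free RNA in these levels was not tested.

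Apoe checked the genotype in the wall cells. It had 587 UMIs in 32 of 34 control cells (6041 CPM, 5562 to 6549.9), 3 UMIs in room air (24.2 CPM) and 0 in aneurysm. Control T cells had 1765 CPM and control leukocytes 8582, so the Cytl1/Clu cells of wild-type mice lay above the T cells. Leukocytes of the Apoe-/- libraries held 16.5 and 13.1 CPM.

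Aneurysm against room air sets smoke and dilatation against the same genotype and diet, and smoke and dilatation cannot be told apart. The comparison shares the room air library with the one before. Of 1598 genes with at least 20 UMIs in the 2 sums (65726 UMIs in aneurysm), 74 (4.63%) were at least 2-fold higher and 123 (7.7%) at least 2-fold lower, and the median gene moved by 0.02 on the log2 scale. Of the 74, 43 lay at least 3 times above leukocytes, and 31 of the 123 did. With 12 aneurysm cells, single cells carried much of many sums.

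Fn1 and some collagen genes were higher in aneurysm. Fn1, which encodes fibronectin, had 83 UMIs in 19 of 25 room air cells and 130 in 11 of 12 aneurysm cells (2.96-fold, 2.23 to 3.95), with 40.8% of the aneurysm UMIs in 1 cell. Col18a1 had 15 and 28 UMIs (3.53-fold, 1.82 to 7.11) and Col4a2 had 7 and 16 (4.32-fold, 1.68 to 12.4), both collagens of basement membranes. Of 8 collagen genes measured, Col4a1, Col4a2, Col18a1 and Serpinh1, the collagen chaperone, were at least 2-fold higher and P4hb lower, with a median log2 ratio of 1.00. Of 8 basement membrane and matricellular genes measured, Fn1 was at least 2-fold higher and Spp1 lower, with a median of 0.70. Igfbp4, a binding protein of insulin-like growth factors, had 51 and 81 UMIs (3.00-fold, 2.09 to 4.35), in 17 of 25 and 10 of 12 cells. The Fn1 and Igfbp4 UMIs were thus found in most aneurysm cells.

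Cyr61, a matricellular protein induced by mechanical strain, had 65 UMIs in 13 of 25 cells and 148 in 9 of 12 (4.30-fold, 3.19 to 5.85). The 5 aneurysm cells with Acta2 held 139 of the 148. Without cells of at least 5 Acta2 UMIs, Cyr61 was at 419 CPM (306 to 561) for room air and at 324 (148 to 614) for aneurysm, with a log2 ratio of -0.37. Fn1 in the remaining cells was at 410 CPM (298 to 550) and 1007 (669 to 1455), and Igfbp4 at 372 (266 to 507) and 827 (524 to 1241), so both stayed higher in aneurysm. Acta2 itself was at 2134 CPM in room air and 1521 in aneurysm.

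The other genes higher in aneurysm had narrow support. Ctla2a, an inhibitor of cysteine proteases, had 28 and 224 UMIs (15.1-fold, 10.2 to 23.3), but 94.6% of the 224 came from 1 cell near the line between groups, and without near-line cells the log2 ratio was -0.13. Fjx1 had 2 and 18 UMIs (a ratio of 17.0, 4.07 to 151) and Krt18, a keratin, 20 and 39 (3.68-fold, 2.10 to 6.67). Sox4 had 28 and 43 UMIs, in 7 cells of each library (2.90-fold, 1.76 to 4.85). Prnp, the prion protein gene, had 7 UMIs in 3 of 25 cells and 16 in 10 of 12 (4.32-fold, 1.68 to 12.4). Atp1b3 was 4.05-fold higher (2.08 to 8.26) and Mob2 3.78-fold (1.53 to 10.2).

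Genes lower in aneurysm had varied known roles. Mfap5, a microfibril protein, had 44 UMIs in 16 of 25 cells and 5 in 4 of 12 (4.66-fold lower, 1.85 to 15.05). It was the only one of 6 elastic fibre genes measured to pass 2-fold, and 3 of the 6 lay above a ratio of 1 (median log2 -0.21). Sfrp1, a secreted Wnt antagonist, had 180 and 47 UMIs (2.03-fold, 1.46 to 2.86). Tagln was 3.18-fold lower (1.97 to 5.38), with most room air UMIs in the pair of cells described above. 1500015O10Rik, known as augurin, had 39 UMIs in 5 of 25 cells and 0 in aneurysm, and 56.4% of the 39 were in 1 cell. With 3 UMIs in place of the 0, it was 6.88-fold lower (interval from 5.33). Mgst3, a glutathione transferase of membranes, had 65 and 14 UMIs (2.46-fold, 1.36 to 4.74) and Adh7, an alcohol dehydrogenase, 54 and 13 (2.20-fold, 1.18 to 4.39).

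Low counts limited the rest of that direction. Fli1, an ETS transcription factor of endothelium and blood cells, had 26 UMIs in 17 of 25 cells and 1 in aneurysm (a ratio of 13.8, 2.26 to 564). Cd2ap, an adaptor protein, had 26 and 2 UMIs (a ratio of 6.88, 1.72 to 59.8). Dqx1 came from 1 cell in each library. Gm42418, which overlaps ribosomal RNA sequence, was 2.48-fold lower (1.35 to 4.93), Slc50a1 3.44-fold (1.19 to 13.6) and Dusp3 3.07-fold (1.17 to 10.2).

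**Figure D5:**
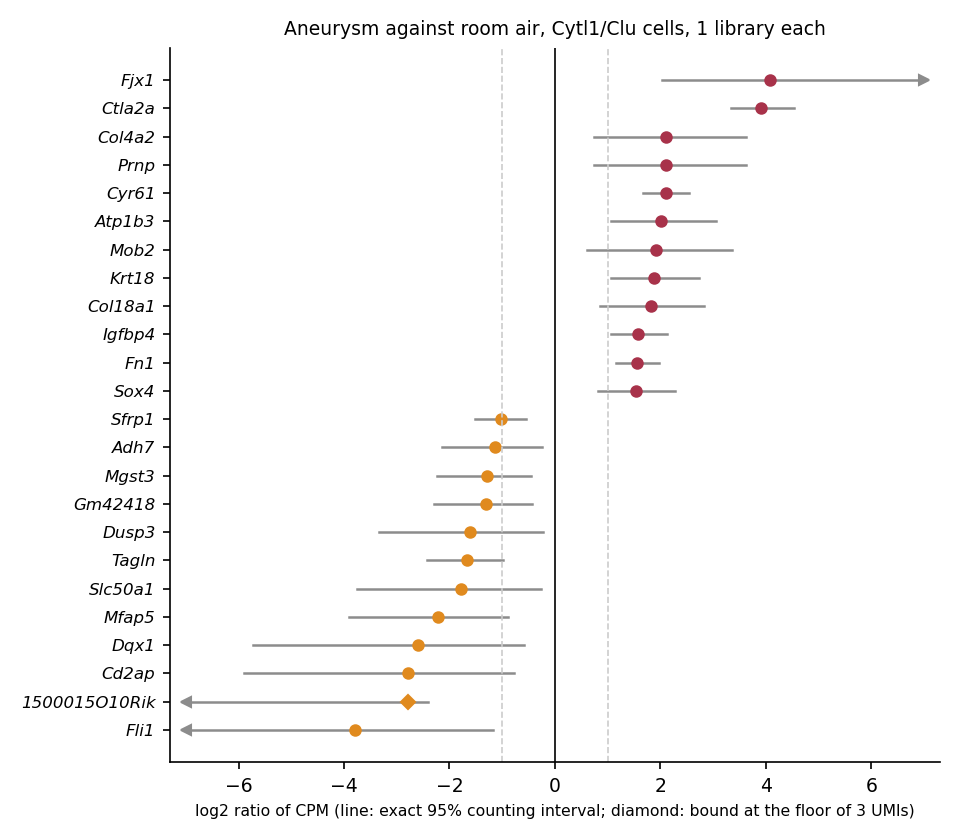
Ratio of aneurysm to room air CPM, on a log2 axis, for the 12 named genes in each direction in Cytl1/Clu cells. Lines are exact 95% counting intervals, arrows run past the axis, and the diamond is the bound for the gene with 0 UMIs in aneurysm.

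The other gene groups differed in how many members passed 2-fold, beside 4.63% higher and 7.7% lower among all tested genes. Of 19 general endothelial and 18 arterial genes measured, 0 passed 2-fold in either direction (median log2 -0.01 and 0.17). Of 13 genes of vascular tone and haemostasis, Ptgs1 and Plat were lower (-0.18). Of 10 flow and KLF genes 0 passed 2-fold and 8 were below a ratio of 1 (-0.46). Of 9 adhesion and chemokine genes Selp, the P-selectin gene, was higher (-0.15). Of 4 capillary and vein genes Selp was higher and Fabp4 and Fabp5 lower (-0.86). In room air 55.6% of the Fabp4 UMIs were in 1 cell. Fabp5 lay below the T cells, at 193 CPM beside 474 in room air and 76.1 beside 285 in aneurysm. Of 6 macrophage genes 5 were lower (-1.92). Of 5 class II genes 5 were lower, and Cd74, H2-Aa, H2-Ab1 and H2-Eb1 lay below the T cell level in each library. Of 12 redox genes Gstp1 was lower (-0.05), and of 13 stress genes Jun and Hspa1a were lower (-0.15). Of 8 growth factor genes Igfbp4 and Cyr61 were higher (0.57).

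The 5 endothelial cells were too few to compare libraries. They held 1742 to 3737 UMIs in control and 2395 in aneurysm. Aqp1, a water channel of microvessels, had 8, 3, 14 and 10 UMIs in the 4 control cells and 7 in the aneurysm cell, and Fabp4 had 11, 5, 19, 37 and 12 in that order. Lrg1 had 7, 25, 6, 6 and 5, and Cd36, a fatty acid receptor, 1, 1, 5, 5 and 7. Aqp1 is one of the genes that set this group. Plvap was also seen in all 5 cells, while Gpihbp1 and Ackr1 were each seen in 1, and Rgcc, Car4, Lpl, Rbp7, Cd300lg and Aplnr, also of the capillary and vein list, in 0. Fabp4 was at 6627 CPM over the 5 cells and at 118 over the 71 Cytl1/Clu cells, where it was seen in 9 cells. Mgp (48 UMIs) and Cytl1 (38 UMIs, in 4 of 5 cells) were also present, as the rule favours. Eln was at 473 CPM in these cells and 3086 in the Cytl1/Clu cells. The clustering placed all 5 with 10 Cytl1/Clu cells in 1 cluster, and the other 80 members kept their groups.

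The control fibroblast cell held 1555 UMIs, the 4 of room air 4174 to 12493 and the 4 of aneurysm 1931 to 8941. Fibroblasts are known to carry neither CD45 nor CD31, so neither sort gate selects them. Of 20 fibroblast genes, 20 were detected and 18 were seen in at least 5 cells. Dcn, which encodes the collagen-binding proteoglycan decorin, had 39 UMIs in the control cell, 125, 117, 65 and 69 in room air, and 52, 195, 19 and 153 in aneurysm. Col1a2 had 22 UMIs, then 33, 54, 23 and 19, then 8, 33, 15 and 29. Col3a1 had 18, then 54, 89, 90 and 84, then 18, 48, 7 and 24. Pecam1 had 1 UMI in all 9 cells together and Myh11 had 0. Some other genes of those lists were seen, 6 of 23 general endothelial genes, led by Cd34, and 5 of 11 smooth muscle genes, led by Tpm2. The endothelial list took 0%, 0.031% and 0.093% of UMIs in control, room air and aneurysm, beside 0.015% to 0.018% in leukocytes. The smooth muscle list took 0.064%, 0.027% and 0.036%, beside 0.00097% to 0.0042% in leukocytes.

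Some genes of secreted proteins ranged widely over the fibroblast cells and others were seen in nearly all of them. Mmp3, a matrix metalloproteinase, had 6 UMIs in the control cell, 0, 187, 93 and 81 in room air, and 63, 228, 0 and 1 in aneurysm. Its high and low cells thus occurred in both Apoe-/- libraries. Saa3, an acute-phase protein, had 1, 231, 68 and 43 UMIs in room air and 0 in the other 5 cells. Sfrp4, a Wnt antagonist, had 0, 164, 27 and 22 in room air and 1, 17, 0 and 0 in aneurysm. C3, the central complement component, was seen in 8 of 9 cells, with 3, 40, 17 and 19 and then 12, 64, 16 and 20 UMIs. Saa3 and Sfrp4 were chosen for mention after their values were seen. Pi16, known from adventitial fibroblasts but also seen in Cytl1/Clu cells, was seen in 5 cells, and Postn, a gene of activated fibroblasts, in 0.

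The chemokine Cxcl12 had 1 UMI in the control cell, 38, 54, 45 and 48 in room air, and 16, 42, 3 and 17 in aneurysm. Among elastic fibre genes Mfap4 had 98 UMIs in 7 of 9 cells and Fbln1 83 in all 9, while Eln had 7. Cst3 (464 UMIs) and Serping1 (214) led the protease inhibitors, and Timp1 had 67 in 8 cells. Of the Cst3 UMIs, 63 were in the control cell and 166 in a room air cell of 8568 UMIs. A room air cell of 8568 UMIs had 236 UMIs of Cd74 and 65 of Lyz2 beside 125 of Dcn. The other 8 held 0 to 22 of Cd74 and 1 to 21 of Lyz2. As a share of UMIs, macrophage genes took 1.67% of the control cell, which is shallow. They took up to 2.21% of a room air cell (median 0.503%) and 0.134% to 0.259% of the aneurysm cells. The part of free or neighbouring RNA in these cells was not tested. Since 4 cells per library is too few to compare, no difference between the fibroblast cells of the libraries was computed.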

How the data were processed

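Single cells were measured in 3 libraries, 1 per pool of mice. The authors deposited counts, whole UMIs per gene and barcode without normalization, made from 10x 3' v2 libraries. The submitters' processing notes name Cell Ranger, STAR and the build mm10; versions are not given in the sources used here. Per the labels, 738, 1736 and 2685 cells were obtained, and the matrices hold 782, 1851 and 2842 barcodes. A further group in the labels was not analysed here.

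The members and gene lists were chosen with earlier results of these data known. UMIs were summed per cell group and library and given as CPM. Ratios carry exact conditional 95% intervals and levels carry exact Poisson intervals. A gene was counted as different at 2-fold or more with at least 20 UMIs in both sums together, and 3 UMIs replaced a sum of 0. Cell groups with under 5 cells in a library were not compared. Leukocytes had at least 1 Ptprc UMI and a rule share under 0.5% (383, 1373 and 2151 cells). T cells also had at least 3 UMIs of Cd3d, Cd3e and Cd3g. Named genes were the rule genes, the 15 leading genes per group, and per comparison and direction the 12 with the strongest near interval bound among those at least 3 times above leukocytes, and up to 4 per list. A gene that met this rule is not reported here. Doublets were scored with Scrublet in scanpy 1.11.5 and removed in an alternative. Barcodes shared between libraries were 4 (control and room air, 1 a member), 0 and 5. Python 3.11.15 and scipy 1.17.1 were used. The comparison was tested on simulated sums with counting error only, which do not cover differences between cells.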

Additional observations from a re-analysis of the deposited data

How the results depend on the processing

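The Cytl1/Clu group held 57 to 79 cells under the alternatives, while the endothelial group went from 5 to 13 cells at a rule share of 0.25%, to 1 at 1% and to 0 with groups from Leiden clusters. At most 5% mitochondrial UMIs left 11 of the 17 aneurysm members. The gene counts followed the count minimum. With at least 50 UMIs, 44 genes were higher and 30 lower in room air, and 13 higher and 30 lower in aneurysm; with at least 10, these were 465, 276, 255 and 408. With free RNA subtracted at the leukocyte level, 348 genes were lower in room air and 235 higher in aneurysm, over 1220 and 990 genes tested. Without subtraction these were 102 of 1820 (5.6%) and 74 of 1598 (4.63%), so the counts depend strongly on that step. Counts of the opposite directions under subtraction are not given here. Of the 48 named gene results, recomputed 586 times under 13 settings, 562 values stayed the same, 21 moved and 3 reversed. Removing doublets and leaving out members over 2% leukocyte genes took out 0 members, so values under those settings were the same by construction. The reversed log2 ratios were -1.66 for Fabp4 with Leiden groups, -0.13 for Ctla2a without near-line cells and -0.37 for Cyr61 without cells of at least 5 Acta2 UMIs. Leaving out near-line cells, leaving out Acta2 cells, Ptprc of any level and leaving out members over 2% leukocyte genes were chosen after seeing the data. No paired analysis was possible because each group is 1 library. The endothelial and fibroblast comparisons were not run, with under 5 cells in a library. Depth limits genes at 0 to the bound of 3 UMIs given above.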
